A study of Mus musculus with 6 samples.

Results

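Tubulins are the building blocks of microtubules, and 8 of their genes, Tuba1a, Tuba4a, Tuba8, Tubb2a, Tubb2b, Tubb3, Tubb5 and Tubb6, are described here in mouse embryonic stem (ES) cells without Dppa4. The members were chosen by gene symbol with the difference of Tubb3 between the cell lines already known, and they took in every probe set annotated with exactly 1 of these symbols: 14 of 45037 probe sets, for 8 of 18193 genes. The knockout group was the Dppa4 knockout ES cell line CI#243.12, with 3 arrays. The other group was its parental line CI#84.2, hemizygous for Dppa4, with 3 arrays. Both were grown on mouse embryonic fibroblasts as feeder cells, so each array also holds feeder RNA, and each group is a single cell line. Values are log2 RMA signals, on which a step of 1 is a doubling. Differences are knockout minus parental, with the SD of 3 arrays or the SE of limma's moderated fit.

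An α-tubulin and a β-tubulin join to form the dimer from which microtubules grow. The genes of each kind, called isotypes, encode very similar proteins that differ mostly in their acidic C-terminal tails, where enzymes of the TTLL family add chains of glutamate or glycine. Isotypes also differ in where they are made. Tubb3 is best known as a marker of neurons, Tuba1a, Tubb2a and Tubb2b are prominent in the developing brain, and Tubb5 is made in most dividing cells. Tubb6 is made in many non-neuronal cells, Tuba4a is abundant in platelets, and Tuba3a and Tuba3b are testis forms.

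The labelled cell types were checked first. Dppa4 (probe set 1429597_at) read 8.68, 8.84 and 8.68 in knockout cells, against 10.30, 10.35 and 10.45 in parental cells, a change of -1.63 (SE 0.08, adjusted p = 0.000112, limma). Its position with respect to the deletion is not given, and it still read above background in knockout cells. All 10 ES cell markers were above the background level of 3.78, which was set by olfactory and vomeronasal receptor genes. Their mean was 10.92 ± 0.01 in knockout and 10.97 ± 0.02 in parental cells (SD, n = 3; exact permutation p = 0.1, the smallest that 3 against 3 can give). In knockout cells 5 of the 10 were higher and 5 lower. Their summed linear signal overlapped, at 28207 to 28524 in knockout and 27847 to 28810 in parental cells. Limma called 0 of these 10, with 0 higher and 1 lower at an unadjusted p under 0.05: the pluripotency factor gene Nanog, named after its value was seen (-0.49, adjusted p = 0.122). Over all genes, 0.605% were called, and 6.36% were lower and 4.66% higher at an unadjusted p under 0.05, so few calls among 10 genes say little. Pou5f1, which encodes the ES cell factor Oct4, read 11.85 ± 0.02 in knockout and 11.91 ± 0.05 in parental cells (adjusted p = 0.852, limma). Across all probe sets, 2 arrays correlated with each other at 0.994 to 0.997.

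The windows of 250 bases upstream of the RefSeq transcription start (GRCm38.p6) are shown for Tubb3, Tubb5, and the testis forms Tuba3a and Tuba3b. The differences of Tubb5 were small, and limma called neither of its probe sets. Capitals mark the GC box (letters GGGCGG), the CCAAT box (letters CCAAT), the TATA box (letters TATAA) and the E-box (letters CACGTG). Each was searched on both strands, so reverse complements are in capitals too, and the TATA letters overlap their own reverse complement where they follow a T. The Tubb3 window is chr8:123411303-123411552 on the plus strand, the Tubb5 window chr17:35838302-35838551 on the minus strand, the Tuba3a window chr6:125286082-125286331 on the minus strand, and the Tuba3b window chr6:145615713-145615962 on the plus strand.
Tubb3: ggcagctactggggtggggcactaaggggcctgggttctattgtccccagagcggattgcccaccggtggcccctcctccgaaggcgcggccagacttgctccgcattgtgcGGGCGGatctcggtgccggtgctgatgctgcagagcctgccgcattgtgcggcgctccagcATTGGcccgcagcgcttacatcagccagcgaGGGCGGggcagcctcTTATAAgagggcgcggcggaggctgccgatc
Tubb5: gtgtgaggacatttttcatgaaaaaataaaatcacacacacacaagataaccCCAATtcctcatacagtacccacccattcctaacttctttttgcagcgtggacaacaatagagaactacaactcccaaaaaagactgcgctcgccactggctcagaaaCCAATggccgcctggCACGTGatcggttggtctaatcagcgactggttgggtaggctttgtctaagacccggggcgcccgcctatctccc
Tuba3a: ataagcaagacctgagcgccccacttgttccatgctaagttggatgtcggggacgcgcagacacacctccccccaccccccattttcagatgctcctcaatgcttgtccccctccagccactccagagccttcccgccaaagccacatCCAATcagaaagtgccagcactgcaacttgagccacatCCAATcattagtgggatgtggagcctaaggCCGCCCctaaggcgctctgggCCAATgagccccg
Tuba3b: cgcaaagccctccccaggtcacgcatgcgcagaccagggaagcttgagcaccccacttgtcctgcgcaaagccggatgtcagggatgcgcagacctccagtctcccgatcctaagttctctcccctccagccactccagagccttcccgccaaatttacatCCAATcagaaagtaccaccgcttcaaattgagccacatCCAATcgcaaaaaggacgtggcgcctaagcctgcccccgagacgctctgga
The Tubb3 window held 2 GC boxes, 1 CCAAT on the reverse strand and a TTATAA close to the start, which counts as TATAA on both strands. It held 21 CpG, where the median over 32851 promoter windows was 6. Among other chosen tubulins, the window of Tubb2a held 22 CpG, that of Tuba4a 20, that of Tuba1a 11 and that of Tuba8 7. The Tubb5 window held 2 CCAAT, 1 E-box and 10 CpG. Tuba3a held 3 CCAAT and Tuba3b 2, and their longest shared run had 33 bases. GC boxes were present in 32.7% of all windows, CCAAT in 33.8%, TATAA in 22.8% and CACGTG in 6.02%. Of the 8 chosen tubulins, 6 had a window in the table: 4 held a GC box, 3 CCAAT, 3 TATAA and 2 an E-box. A match is only a match of letters and says nothing of binding.

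Tubb3, the neuronal β-tubulin, stood apart among the 14 probe sets. Its single probe set, 1415978_at, read 6.17, 6.01 and 6.18 in knockout cells, against 7.15, 6.87 and 6.99 in parental cells. The groups did not overlap: the highest knockout array lay 0.69 below the lowest parental array, and all 9 pairs of a knockout and a parental array had the knockout lower. The mean was 6.12 ± 0.10 in knockout and 7.003 ± 0.14 in parental cells (SD, n = 3), a difference of -0.88 (SE 0.10) that left 54.2% of the parental signal. Both levels were above background. Since Tubb3 was chosen for this difference, no p-value of it is given. In RNA of whole cultures, fewer cells of a type and less RNA per cell cannot be told apart.

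Tubb5, the β-tubulin of most dividing cells, was slightly lower in knockout cells on both of its probe sets. On 1416256_a_at it read 12.46, 12.51 and 12.49 in knockout cells, against 12.59, 12.60 and 12.61 in parental cells. The groups did not overlap, but the difference was only -0.11 (SE 0.07). On 1455719_at it read 9.52, 9.49 and 9.64 in knockout cells, against 9.74, 9.94 and 9.72 in parental cells. Here too the groups stayed apart, with a difference of -0.25 (SE 0.09).

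**Figure D1:**
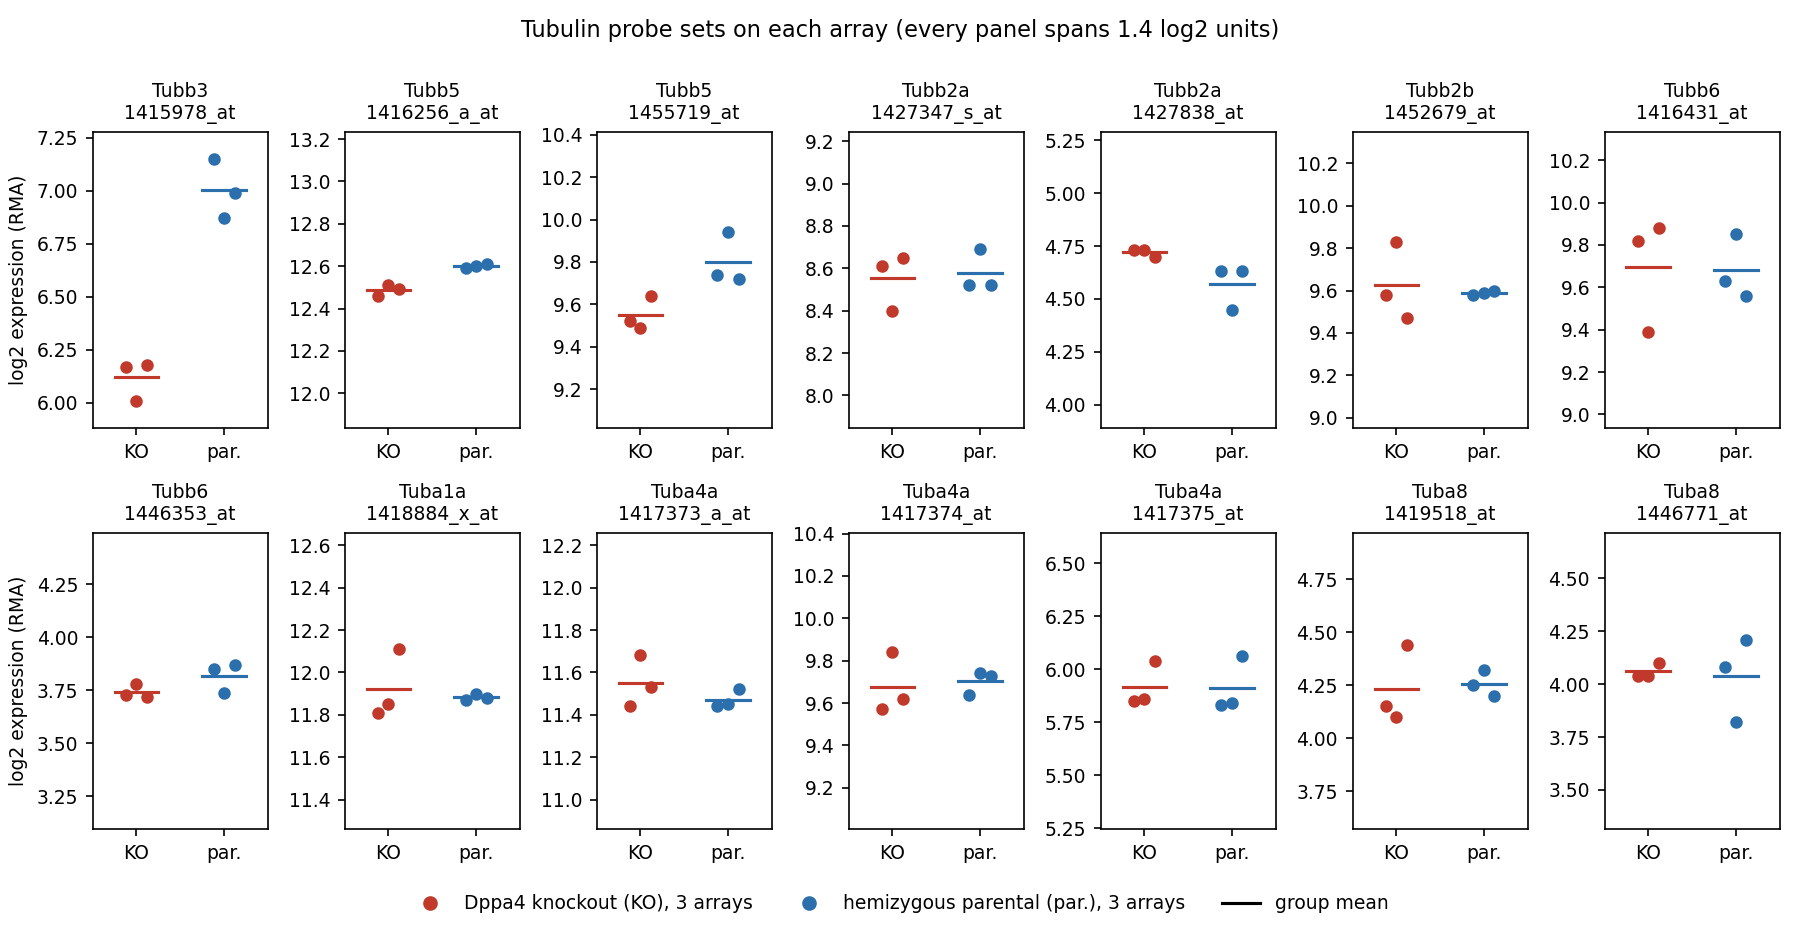
Log2 expression of the 14 tubulin probe sets on each array, with 3 knockout arrays (red, left) and 3 parental arrays (blue, right) per panel and bars at the group means; all panels span the same log2 range. The Tubb3 points lie at 6.01 to 6.18 in knockout and 6.87 to 7.15 in parental cells, while in 10 of the 14 panels the groups overlap.

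The remaining β-tubulins differed little. Tubb2a, a brain isotype, read 8.61, 8.40 and 8.65 on 1427347_s_at in knockout cells, against 8.52, 8.69 and 8.52 in parental cells, with full overlap. Its other probe set, 1427838_at, gave 4.73, 4.73 and 4.70 in knockout cells, against 4.63, 4.45 and 4.63 in parental cells. That was the one case of no overlap with the knockout higher, by 0.15 (SE 0.08), so the 2 probe sets of Tubb2a did not point the same way.

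Tubb2b, which is encoded next to Tubb2a and is also prominent in the developing brain, read 9.58, 9.83 and 9.47 on 1452679_at in knockout cells, against 9.58, 9.59 and 9.60 in parental cells. Its parental arrays lay close together while the knockout arrays spread on both sides of them (difference 0.04, SE 0.10). Tubb6 read 9.82, 9.39 and 9.88 on 1416431_at in knockout cells, against 9.63, 9.85 and 9.56 in parental cells. It had the widest spread of all 14 probe sets, a pooled SD of 0.22, and a difference of 0.02 (SE 0.14). Its other probe set, 1446353_at, lay at background, at 3.72 to 3.78 in knockout and 3.74 to 3.87 in parental cells.

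The α-tubulins showed overlap throughout. Tuba1a, the main α-tubulin of newborn neurons, read 11.81, 11.85 and 12.11 on 1418884_x_at in knockout cells, against 11.87, 11.90 and 11.88 in parental cells (difference 0.04, SE 0.09). Its probe set has the x_at ending, which marks probes that may bind other transcripts, a point that matters in a family this similar. Tuba4a, an α-tubulin that lacks the C-terminal tyrosine most other α-tubulins are made with, had 3 probe sets. On the brightest of these, 1417373_a_at, it read 11.44, 11.68 and 11.53 in knockout cells, against 11.44, 11.45 and 11.52 in parental cells, with differences of 0.08, -0.03 and 0.01 over the 3 probe sets. Tuba8, a divergent α-tubulin, was near background on both probe sets, at 4.10 to 4.44 in knockout and 4.20 to 4.32 in parental cells on 1419518_at, and at 4.04 to 4.10 in knockout and 3.82 to 4.21 in parental cells on 1446771_at.

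Counted together, 7 of the 14 probe sets were lower and 7 higher in knockout cells, with a median difference of -0.01, against 0.00 over all 45037 probe sets. Outside Tubb3 the differences ran between -0.25 and 0.15, and 10 of these 13 were within 0.1 of zero. There was no overlap in 4 of the 14 cases, 3 lower and 1 higher, where 14.2% of all probe sets showed none. The adjusted p was under 0.05 in limma's fit for 1 of 14, Tubb3, the gene picked for its difference, where 0.402% of all probe sets were called (0.333% lower and 0.0688% higher). Because the genes were chosen with this comparison known, these shares are a description and nothing is read from them. A further 2 probe sets carried a chosen gene together with another locus and were left out of the counts: 1449682_s_at, of Tubb2b and Tubb2a-ps2, differed by -0.10, and 1433584_at, of Tuba1a and Gm6682, was below background on all 6 arrays.

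The α- and β-tubulins that were not among the chosen genes differed most in the testis forms. The array measures Tuba3a and Tuba3b together on 2 probe sets, and both were lower in knockout cells. On 1416311_s_at the readings were 7.56, 7.83 and 7.62 in knockout cells, against 8.34, 8.73 and 8.53 in parental cells. The groups did not overlap, and the signal fell by 0.86 on the log2 scale (SE 0.12, adjusted p = 0.0246, limma), to 55.0% of the parental level. On 1448296_x_at the readings were 7.16, 7.80 and 7.66 in knockout cells, against 8.66, 8.81 and 8.77 in parental cells. Here the change was -1.21 (SE 0.15, adjusted p = 0.0190, limma), to 43.3% of the parental level. The falls cannot be assigned to 1 of the 2 genes, and the endings s_at and x_at mean that neither probe set is specific by design. The one probe set of Tuba3b alone, 1438611_at, was close to background, at 3.87 ± 0.07 in knockout and 4.12 ± 0.26 in parental cells (SD, n = 3; adjusted p = 0.600, limma). Without 1 array the adjusted p of 1416311_s_at ran between 0.0396 and 0.135, past the threshold without knockout replicate 2 or parental replicate 1 and not without the others. That of 1448296_x_at ran between 0.0124 and 0.0876, past the threshold without knockout replicate 1 or 2 and not without the others. When the mean of the feeder genes entered as a covariate, 1416311_s_at changed by -0.82 (SE 0.17, adjusted p = 0.294) and 1448296_x_at by -0.91 (SE 0.17, adjusted p = 0.230), neither past the threshold.

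**Figure D2:**
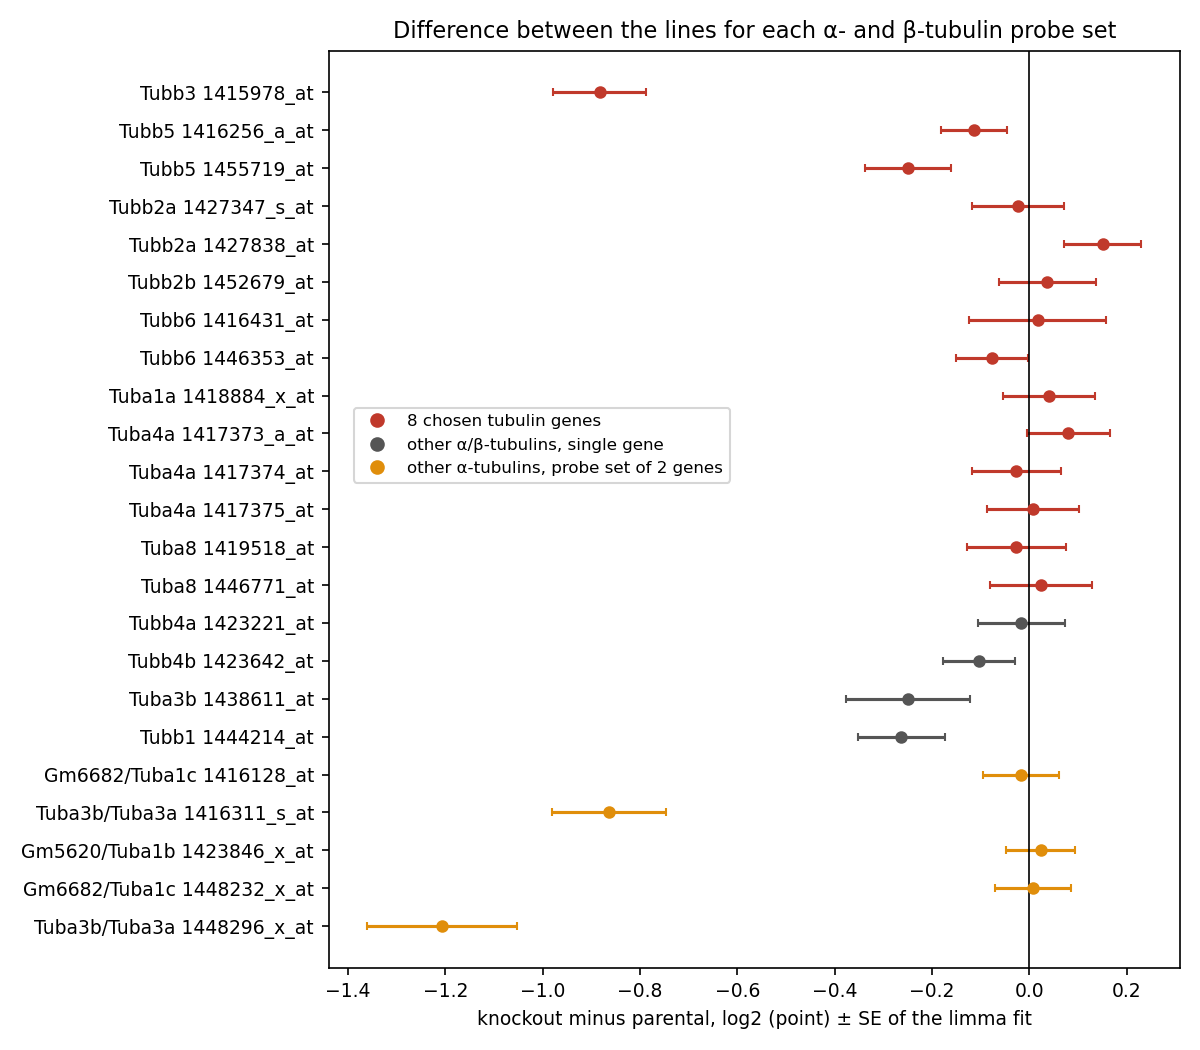
Difference in log2 expression, knockout minus parental, for the 14 probe sets of the chosen genes, 1 for each other α- or β-tubulin and the 5 shared ones, with the SE of the fit; red marks the 8 chosen genes, grey the other genes measured alone and orange the probe sets shared by 2 genes. Tubb3 at -0.88 and the Tuba3a and Tuba3b probe sets at -0.86 and -1.21 lie apart from the rest, which run between -0.26 and 0.15.

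Of the 8 listed other α- and β-tubulins, 4 were measured alone, and limma called 0 of these 4, with 1 lower at an unadjusted p under 0.05. Over all 18193 genes, 0.605% were called (0.511% lower and 0.0934% higher), and 6.36% were lower and 4.66% higher at an unadjusted p under 0.05. Tubb4b, a broadly made β-tubulin of cilia and spindles, read 11.60, 11.69 and 11.54 on 1423642_at in knockout cells, against 11.70, 11.74 and 11.70 in parental cells (-0.10, adjusted p = 0.738). Limma called 0 of its 6 probe sets, and 3 were below background on all arrays. On 1438622_x_at and 1456470_x_at, both above background, it differed by -0.05 and -0.03. Tubb4a, a β-tubulin of myelinating glia and neurons, differed by -0.02 (adjusted p = 0.977). Tubb1, the β-tubulin of platelets, was below background on every array (-0.26, adjusted p = 0.396). On probe sets shared with other loci, the α-tubulin Tuba1b read 13.47 ± 0.06 in knockout and 13.45 ± 0.01 in parental cells (SD, n = 3), and the 2 of Tuba1c differed by -0.02 and 0.01.

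Feeder fibroblasts also make tubulins, so their markers are given beside the chosen genes. The mean of 26 measured feeder genes was 10.37, 10.19 and 10.28 in knockout cells, against 10.13, 10.22 and 10.14 in parental cells (difference 0.12, exact permutation p = 0.2). All 26 were above background, and 23 were higher, 2 lower and 1 (Col1a1) equal in knockout cells, with a median difference of 0.11, against 0.00 over all genes. Limma called 0 of the 26, where 0.605% of all genes were called. At an unadjusted p under 0.05 it had 2 higher and 0 lower, where 4.66% of all genes were higher and 6.36% lower. The summed linear signal of the 26 ran from 48723 to 53197 in knockout and from 46369 to 48857 in parental cells. Col1a2 read 12.71 ± 0.07 in knockout and 12.61 ± 0.08 in parental cells, and Col3a1, another fibrillar collagen gene, 12.34 ± 0.26 in knockout and 12.16 ± 0.30 in parental cells (SD, n = 3).

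Knockout replicate 2 had the lowest feeder mean of the knockout arrays. It also had the lowest Tubb6 (9.39 on 1416431_at) and Tubb2a (8.40 on 1427347_s_at), whereas its Tuba4a (11.68 on 1417373_a_at) and Tubb2b (9.83) were the highest. Parental replicate 2 had the highest feeder mean of the parental arrays and, on the same probe sets, the highest Tubb6 (9.85) and Tubb2a (8.69). The other probe set of each gene went the other way. Tubb2a on 1427838_at was lowest on parental replicate 2 (4.45) and shared the highest knockout value on knockout replicate 2 (4.73). Tubb6 on 1446353_at, which lay at background, was lowest on parental replicate 2 (3.74) and highest on knockout replicate 2 (3.78). With the feeder mean as a covariate, the difference of Tubb6 on 1416431_at moved to -0.28 (SE 0.14) and that of Tuba4a on 1417373_a_at to 0.21 (SE 0.10). The difference of Tubb3 under that covariate was -0.90 (SE 0.14), and its lowest reading in each group, 6.01 in knockout and 6.87 in parental cells, came from replicate 2. With the covariate, 0 of the chosen tubulins' probe sets had an adjusted p under 0.05 (limma). The part of the feeder cells in any of these differences, that of Tubb3 included, was not tested.

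**Figure D3:**
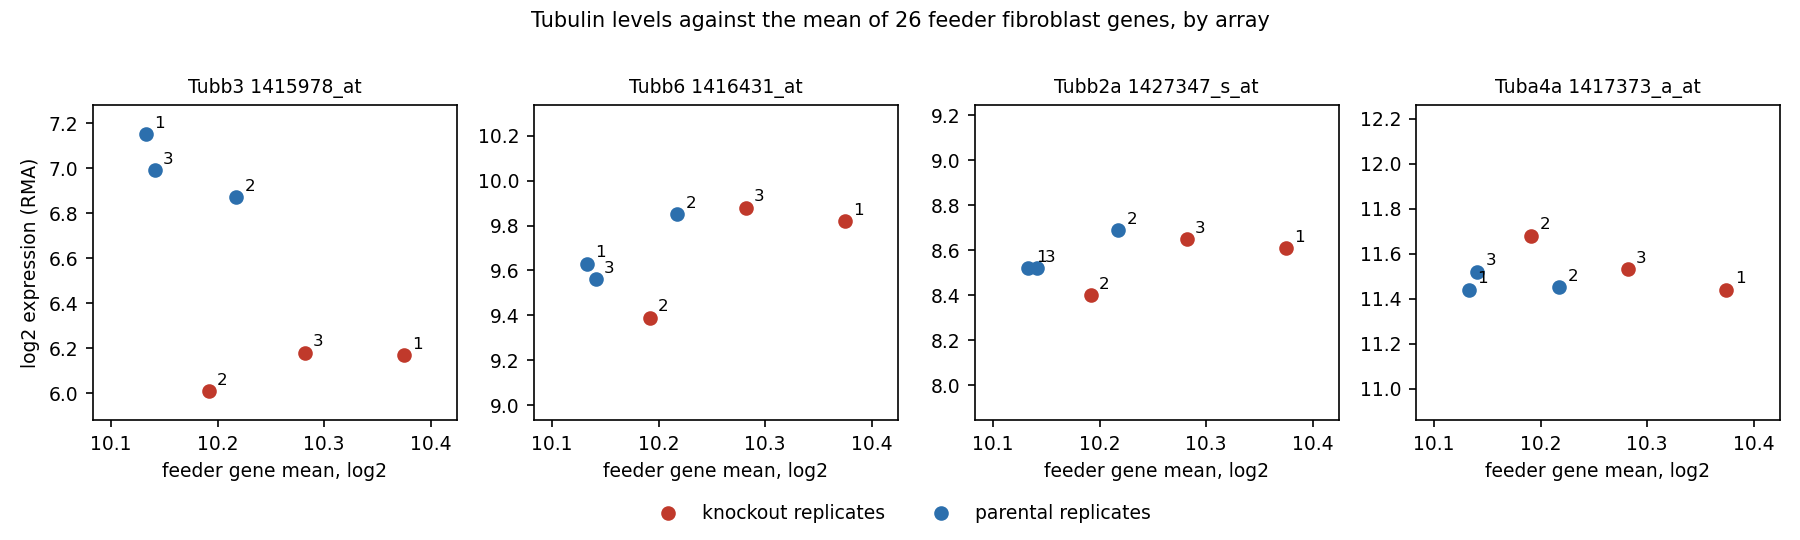
Log2 expression of Tubb3, Tubb6, Tubb2a and Tuba4a (vertical axes, equal span) against the mean of 26 feeder fibroblast genes (horizontal axis, log2) on each array, with knockout replicates in red and parental replicates in blue; the 4 probe sets were picked after their values were seen. Tubb6 (1416431_at) and Tubb2a (1427347_s_at) are lowest on knockout replicate 2, and the Tubb3 groups do not overlap.

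Genes that act with or on α- and β-tubulin were taken from 4 lists. The shares over all genes were 0.605% called, and 6.36% lower and 4.66% higher at an unadjusted p under 0.05. Of 12 measured genes of the γ-, δ- and ε-tubulins and the γ-tubulin ring complex, which starts new microtubules, limma called 0, with 2 higher and 0 lower at an unadjusted p under 0.05 and a median of 0.07. The probe sets with the highest signal were those of the ring complex subunits Mzt1 (8.49 ± 0.06 in knockout and 8.61 ± 0.01 in parental cells) and Mzt2 (8.42 ± 0.01 in knockout and 8.17 ± 0.09 in parental cells), at adjusted p = 0.683 and 0.319 (limma). Of 22 genes of tubulin folding, which include the CCT chaperonin and prefoldin, limma called 0, with 0 higher and 2 lower at an unadjusted p under 0.05. The CCT subunits Cct6a and Cct2, whose probe sets had the highest signal, differed by 0.03 and -0.01. Of 23 microtubule-associated and plus-end genes, limma called 0, with 2 higher and 1 lower at an unadjusted p under 0.05 and a median of 0.00. Stmn1, which binds and sequesters tubulin dimers, read 12.34 ± 0.01 in knockout and 12.43 ± 0.06 in parental cells, and the plus-end gene Mapre1 10.45 ± 0.11 in knockout and 10.41 ± 0.05 in parental cells (SD, n = 3). The largest difference in that list, picked after its value was seen, was Stmn3, a relative of Stmn1 (0.51, adjusted p = 0.168).

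Among 19 measured tubulin-modifying enzymes, 1 fell, 0 rose and 18 did not pass. Of all genes, 0.511% fell and 0.0934% rose past the same threshold. The member that fell was Ttll4, which starts glutamate chains on tubulin tails and favours β-tubulin. On 1428911_at it read 6.57, 6.55 and 6.30 in knockout cells, against 7.13, 7.15 and 7.22 in parental cells. The groups did not overlap, and the level fell by 0.69 on the log2 scale (SE 0.09, adjusted p = 0.0224, limma). A second probe set, 1436249_at, read 5.68, 5.99 and 5.83 in knockout cells, against 6.66, 6.40 and 6.64 in parental cells (-0.73, SE 0.11, adjusted p = 0.0368), and kept its call without knockout replicate 2 or parental replicate 2 and lost it when another array was dropped (adjusted p between 0.0481 and 0.173). It also lost its call with the replicate number as a block (-0.73, adjusted p = 0.192) and with the feeder mean as a covariate (-0.50, adjusted p = 0.290). The remaining 2 of its 4 probe sets were below background on all arrays. The call on 1428911_at was lost whichever of the 6 arrays was left out (adjusted p between 0.0569 and 0.104), with the replicate number as a block (adjusted p = 0.132) and with the feeder mean as a covariate (adjusted p = 0.254), while its change was -0.74 to -0.61 without 1 array, -0.69 with the block and -0.70 with the covariate. The median of this list was 0.03.

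**Figure D4:**
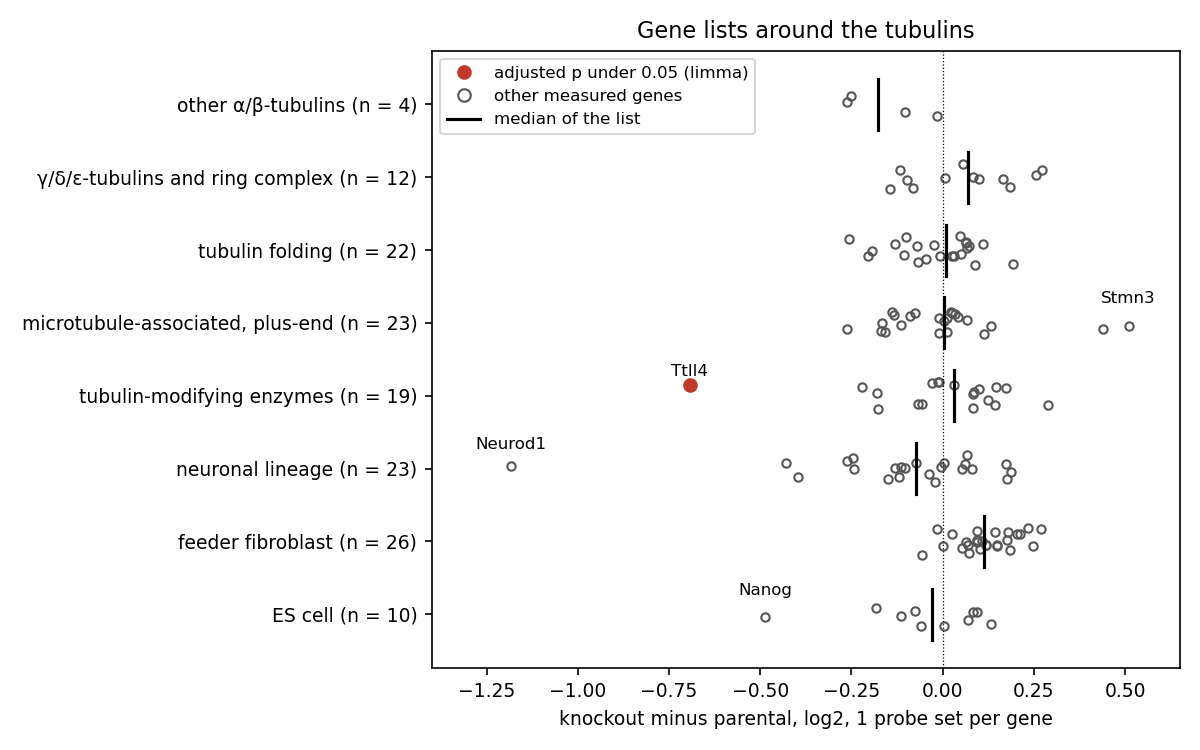
Difference in log2 expression, knockout minus parental, for each measured gene of the 8 lists, with 1 point per gene, a black bar at the list's median and filled red for adjusted p under 0.05 (limma). Ttll4 at -0.69 is the filled point; Neurod1 at -1.18 is the lowest open one, and the feeder list is centred at 0.11.

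Tubb3 is used as a marker of neurons, so 23 further neuronal genes were examined. Limma called 0 of them, with 0 higher and 3 lower at an unadjusted p under 0.05, and the median was -0.07. Over all genes, 0.605% were called, and 6.36% were lower and 4.66% higher at an unadjusted p under 0.05. The 3, named after their values were seen, were Neurod1, Mapt (-0.43, adjusted p = 0.521, limma) and Nefm (-0.40, adjusted p = 0.223, limma). Nefm was below background on all arrays, and 0 of the 4 probe sets of Mapt were called. The list's mean was 5.03 ± 0.02 in knockout and 5.15 ± 0.03 in parental cells (SD, n = 3; exact permutation p = 0.1), and its summed linear signal ran from 2749 to 2786 in knockout and from 2949 to 3007 in parental cells. In knockout cells 8 genes of the list were higher and 15 lower, and Neurod1 had the largest difference (-1.18). Of the 23, 16 were above background in at least 1 group and 7 were below it in both. Among these 7, and named after their values were seen, were the markers of young and mature neurons Dcx (3.13 ± 0.19 in knockout and 3.16 ± 0.16 in parental cells) and Map2 (3.09 ± 0.09 in knockout and 3.21 ± 0.08 in parental cells). The 2 whose probe sets had the highest signal, Stmn2 (10.56 ± 0.02 in knockout and 10.63 ± 0.07 in parental cells) and Gap43 (8.0 ± 0.19 in knockout and 8.02 ± 0.18 in parental cells), both genes of growing axons, were at adjusted p = 0.820 and 0.980 (limma). The other probe set of Stmn2, 1423280_at, differed by 0.09, with the knockout higher (adjusted p = 0.824, limma).

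Neurod1, a transcription factor gene of neuronal and endocrine differentiation named after its values were seen, had the lowest difference in the list. On 1426413_at it read 6.05, 5.98 and 5.78 in knockout cells, against 7.66, 6.96 and 6.74 in parental cells, without overlap (-1.18, SE 0.21, adjusted p = 0.0754, limma). On 1426412_at it read 5.22, 5.12 and 5.24 in knockout cells, against 6.06, 5.67 and 5.99 in parental cells, and fell by 0.71 (SE 0.11, adjusted p = 0.0419, limma). Its adjusted p without 1 array ran between 0.0191 and 0.176, past the threshold only without parental replicate 2, and was 0.0905 with the replicate number as a block (change -0.71) and 0.374 with the feeder mean as a covariate (change -0.66).

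The genes around Tubb3 on chromosome 8 differed little between the lines. The 3 nearest measured protein-coding genes on each side, a set chosen after the values were seen, were Spire2, Tcf25 and Mc1r before it and Def8, Afg3l1 and Dbndd1 after it. Limma called 0 of these 6, where 0.605% of all genes were called. Of the 6, 0 had an unadjusted p under 0.05, where 6.36% of all genes were lower and 4.66% higher at that level. The differences ran between -0.11 and 0.10. Def8, next to Tubb3, read 6.26, 6.34 and 6.27 in knockout cells, against 6.35, 6.28 and 6.31 in parental cells. Mc1r, the melanocortin receptor gene on its other side, was at or below background on all arrays, at 3.49 to 3.75 in knockout and 3.41 to 3.78 in parental cells.

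Profiles most like that of Tubb3 were sought among 13376 genes above background, by the Euclidean distance over the 6 arrays after subtracting each gene's mean. The nearest was Slc38a4, an imprinted amino acid transporter gene (distance 0.20), which read 7.95, 7.57 and 7.79 in knockout cells, against 8.87, 8.45 and 8.70 in parental cells. As in Tubb3, replicate 2 was the lowest of each group. It was followed by Elmo1, a gene of Rac signalling (0.24), the syntrophin gene Sntb1 (0.25), Efhc2 (0.28) and the kinase gene Mok (0.29). Their differences lay between -1.01 and -0.77. They were picked for likeness to Tubb3, so these values carry no test. Sntb1 was at or below background on all knockout arrays and thus at least 1.76-fold lower.

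**Figure D5:**
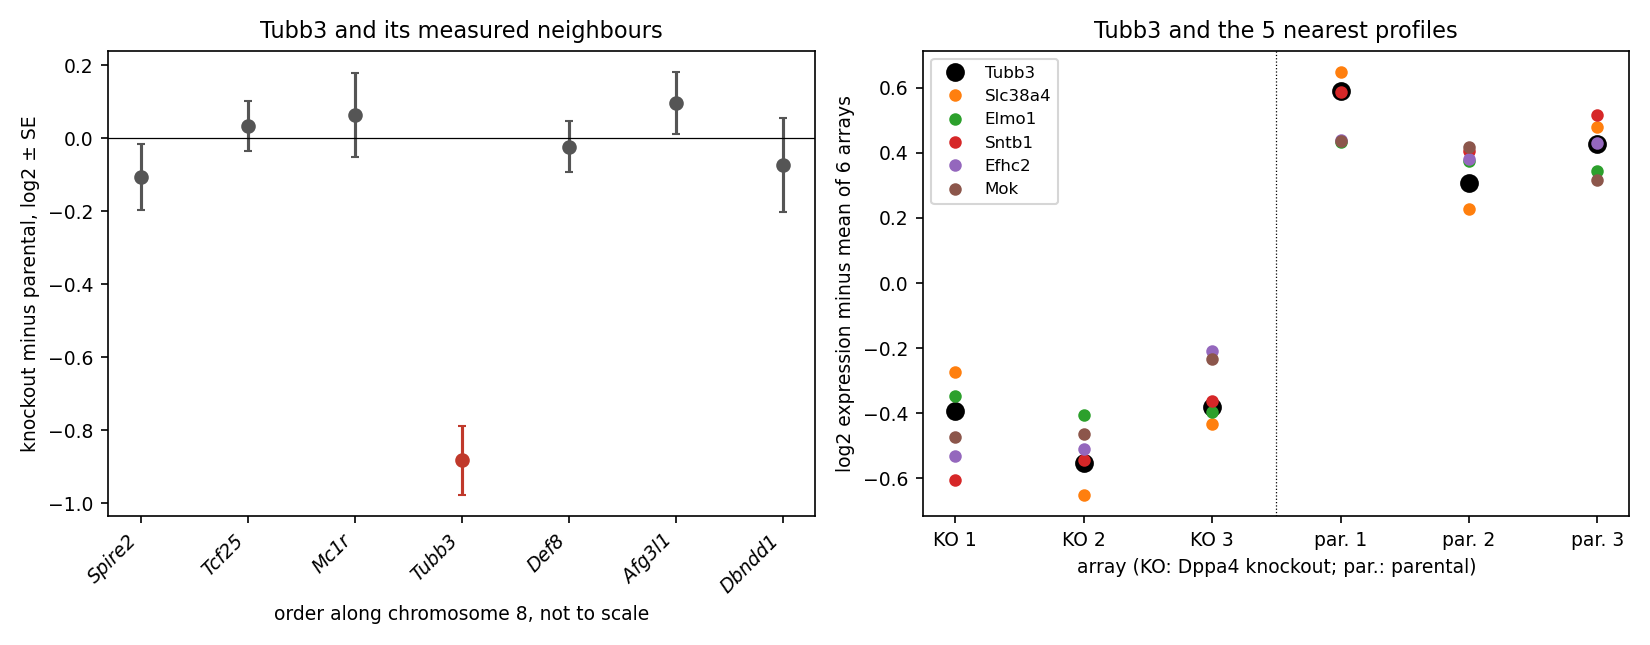
Left, difference in log2 expression with SE for Tubb3 (red) and its 3 measured neighbours on each side, in chromosomal order and not to scale; right, log2 expression minus the mean of the 6 arrays for Tubb3 (black) and the 5 genes nearest to it. The neighbours lie between -0.11 and 0.10 while Tubb3 is at -0.88.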

How the data were processed

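RNA of 3 knockout and 3 parental samples was measured on Affymetrix arrays. Per the submitters' processing notes, the authors deposited log2 expression values made with RMA (robust multi-array average). Software, settings and probe set definitions used for RMA are not stated in the labels. The deposited values lie between 2.12 and 13.98, the range of a log2 scale. Because RMA makes the arrays' distributions alike, a shift shared by most transcripts would go unseen. Of 45101 probe sets, 64 controls were left out. The platform annotation named 1 gene for 34945, several for 932 and none for 9160, and 34741 were matched to RefSeq (GRCm38.p6), used for names, gene order and promoter windows.

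The test was two-sided, by lmFit and eBayes of limma 3.58.1 (R 4.3.3), on 45037 probe sets with Benjamini-Hochberg adjustment. Background was set from 80 probe sets of olfactory and vomeronasal receptors, at the 95th percentile of their means. A listed gene was represented by its probe set with the highest mean among those with 1 gene. Alternatives were repeated quantile normalization, subtracted medians, a replicate block, a robust prior that follows intensity, filters on probe sets, the mean of a gene's probe sets, the feeder mean as a covariate, and leaving out each array. The procedure was tested on simulated arrays with the same noise level for every probe set, where 500 of 500 planted log2 changes of 1 were called. Real probe sets differ in their spread, which that simulation left out, so it says nothing of the power here. The tubulins, gene lists, tests and alternatives were chosen with earlier results of these data known. Named were Dppa4, all chosen tubulins, every measured other α- or β-tubulin, and from each further list up to 3 genes with the largest changes past the threshold, without overlap and above background, or else the 2 with the highest mean. The 5 genes nearest in profile to Tubb3 were added. Deviations of same-numbered arrays correlated at 0.17, -0.46 and -0.40, which showed no common pairing by number. Deviations from a mean of 3 arrays constrain each other, so this check cannot decide whether same-numbered arrays were handled together. The deviations of knockout replicate 3 and parental replicate 2 correlated at 0.50, and those of knockout replicate 2 and parental replicate 3 at 0.49. Whether arrays were handled together across the numbers is not stated and was not tested. The replicate block follows the numbers only and does not cover it. Replicates are not stated to be separate cultures, and what p-values capture here is the spread of these arrays, which can be technical. The number of arrays limits the precision.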

Additional observations from a re-analysis of the deposited data

How the results depend on the processing

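Over all probe sets, 181 were called. The count was 88 with the replicate number as a block, 312 with an intensity trend and robust prior, 35 with the feeder mean as a covariate, and 70 to 112 without 1 array. Of the chosen tubulins' probe sets, 1 (Tubb3, picked for this difference) had an adjusted p under 0.05, and 0 had one with the feeder covariate. The Tubb3 difference was -0.95 to -0.81 without 1 array and -0.88 with the block. Of the modifying enzymes 0 were called with the block, 0 with that covariate, and 0 to 0 when an array was dropped. Of the neuronal genes 1 was called with the trend and robust prior and 1 with the mean of all probe sets, and of the ES cell genes 1 with the trend and robust prior. The feeder mean difference was 0.073 to 0.165 without 1 array. The cause was not tested. No called change or difference switched sign. Tubb4a, not called at -0.02, was -0.0817 to 0.0533 without 1 array, above 0 without knockout replicate 1 (0.0533) or parental replicate 2 (0.01), and 0.0357 with the feeder covariate. Of the chosen tubulins' 13 probe sets other than that of Tubb3, 8 had the opposite sign under some alternative, the farthest being Tubb6 at -0.28 with the feeder covariate. The feeder list was not run with its own mean as a covariate. Differences near background are limited by signal.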
